A study of Mus musculus with 139 samples.

Results

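Lungs of mice given 80 µg of multi-walled carbon nanotubes (MWCNT) were compared with lungs of mice given the vehicle, dispersion medium (DM), 6 months after exposure. All arrays whose source label gave the 80 µg dose at 6 months (8 mice) or DM at 6 months (8 mice) were taken, which is 16 of the 139 arrays, in 18 groups, of the whole study. The 8 exposed mice were male C57BL/J6 mice, 7 weeks old on arrival, that took in 50 µL of an MWCNT suspension by breathing it from the base of the tongue under isoflurane. The 8 DM mice were of the same strain, sex and age and took in 50 µL of the vehicle alone, a phosphate-buffered saline with glucose, mouse serum albumin and the phospholipid DPPC, which every MWCNT dose also contained. The other groups were given 1, 10 or 40 µg of MWCNT or 120 µg of crocidolite asbestos, or were read after 1 or 12 months. Total RNA of lung tissue was measured, 400 ng to an array, so fewer cells of a type and less RNA per cell cannot be told apart. The age at the time of reading is not stated beyond the interval since exposure, and no mouse appears in more than 1 of the groups used here.

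Long, stiff fibres that reach the alveoli are taken up by macrophages, which digest most particles in lysosomes but clear such fibres slowly. Mouse lung is known to answer them with macrophage and epithelial secretions, chemokines that draw in leukocytes, and mucous change of the airway lining. Genes induced in macrophages and epithelium by interleukin 4 and interleukin 13, through the transcription factor STAT6, include resistin-like and chitinase-like proteins, CC chemokines and airway mucous genes.

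The tissue label was borne out by lung markers, all values here being log2 array levels, on which a difference of 1 is a doubling. Sftpc, the surfactant protein of type 2 alveolar cells, lay between 12.51 and 12.67 in the exposed mice and between 12.40 and 12.58 in the DM mice. Scgb1a1, the secretoglobin of club cells, lay between 12.47 and 12.74 in exposed and between 12.46 and 12.79 in DM mice. The median correlation of each of these 16 lungs with the other lungs of the study, over all genes, was 0.977 to 0.985. Markers of squamous epithelium and skeletal muscle stood out in 1 exposed mouse, m11 in the titles, where m and a number name a mouse. The mean level of 10 squamous epithelium genes was 7.13 in that mouse, 2.76 to 2.94 in the other 7 exposed mice and 2.58 to 2.90 in the DM mice. The mean of 12 skeletal muscle genes was likewise 6.34 in mouse m11, 3.0 to 3.27 in the other 7 and 3.04 to 3.48 in the DM mice. Adipose tissue genes, 9 measured, had their highest means in DM mouse m343 (6.45) and exposed mice m274 (6.12) and m142 (5.98). Those of the other lungs were 3.95 to 5.17. Without mouse m11 the count of genes past the test given below was 157, all but 3 of them among those called with all mice. The titles of exposed mice m142 and m372 and of DM mouse m306 carry the word "replacement", which no source used here explains, and for the lists and leading genes values without those arrays are given where the call or the count moved.

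Exposed mouse m274 stood apart from its group. Over the 374 genes that were higher with 80 µg MWCNT than DM in separate mice read at 1 month, the median difference of mouse m274 from the 6-month DM mean was 0.04. The other 7 exposed mice had medians of 0.13 to 1.06, with mouse m399 lowest and mouse m372 highest, and the DM mice, each against the other DM mice, had medians of -0.20 to 0.14. Mouse m274 exceeded every DM mouse in 14.7% of those genes, mouse m399 in 22.2% and mouse m372 in 93.6%, whereas a DM mouse exceeded all other DM mice in 1.6% to 28.6%. So mouse m274 lay among the DM mice, and mouse m399 at their upper edge, on genes chosen by a difference between other mice. With the genes called higher when the 1-month groups were fitted alone, the medians were 0.01 for mouse m274, 0.11 to 1.04 for the other 7 exposed mice and -0.21 to 0.17 for the DM mice. Among the 8 mice labelled 1 µg MWCNT at 6 months, 1 stood apart in the opposite way, namely m247, which is m274 with 2 digits in the other order. Mouse m247 had a median of 0.39 over the same 374 genes, against -0.08 to 0.11 in the other 7 mice of that dose. Its level of Clca1 was 10.14, against 3.46 to 5.25 in those 7, and its level of Mmp12 was 8.40, against 4.93 to 5.47. Whether these labels were exchanged was not tested, every mouse was kept in the group its label gives, and the counts and the leading genes are given with and without mouse m274.

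**Figure D1:**
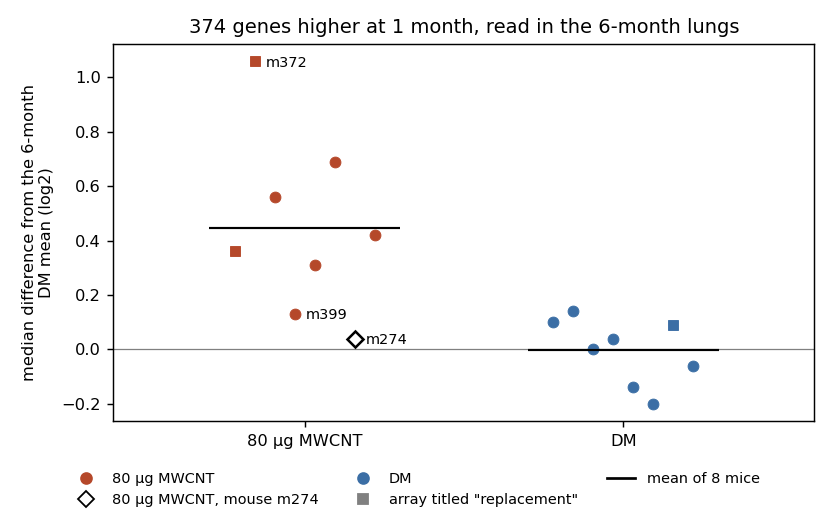
Each point is 1 lung at 6 months, and the y axis is the median log2 difference from the 6-month DM mean over the 374 genes that were higher with 80 µg MWCNT at 1 month in other mice; squares mark arrays titled "replacement" and bars the mean of 8 mice. Exposed mouse m274 (0.04) lies among the DM mice (-0.20 to 0.14), mouse m399 (0.13) at their upper edge and mouse m372 (1.06) above all others.

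At 6 months, 178 of 22180 genes were higher (0.803%) and 29 were lower (0.131%) in the exposed lungs than in the DM lungs, together 0.933% of the genes tested (limma over all mice, Benjamini-Hochberg adjusted p under 0.05). The median difference over all genes was -0.02. Of the higher genes 56 exceeded a doubling, and of the lower genes 0 reached a halving. Without mouse m274, 237 genes were higher (1.07%) and 53 lower (0.239%), together 1.31% of those tested, and 200 of the 207 genes called with all mice were among them. Mouse m274 had the lowest value of the 8 exposed mice in 61.2% of the 178 higher genes and mouse m372 the highest in 70.8%. In 38 of the 178, mouse m274 was above every DM mouse, in 7 it was below every one, and in the rest it lay within the DM range. These 178 were called with mouse m274 in the exposed group, and its share over all genes was not counted. Single DM mice exceeded all other DM mice in 1.6% to 28.6% of the 374 genes of 1 month, which is a different set of genes. Their shares of the 178 were not counted, so whether the 38 set mouse m274 apart from the DM mice cannot be told. All 8 exposed mice exceeded every DM mouse in 9 of the 178 higher genes, where 0.0676% of all genes did so, and the 7 mice other than m274 did in 36, where 0.234% of all genes did so.

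The count rested strongly on a few lungs. It was 75 without exposed mouse m372 (74 higher, 1 lower) and 115 without exposed mouse m174 (103 higher, 12 lower), and without DM mouse m84 it was 0.6% of the genes tested, with 91% of the calls higher. Arrays without the word "replacement" gave 51 higher and 3 lower genes with mouse m274, and 117 higher and 15 lower without it. The 3 arrays with the word, 2 exposed and 1 DM with the spread taken from other groups, gave 9 higher and 1 lower. Fitting the 16 mice alone gave 20 higher (0.0902%) and 4 lower genes (0.018%), together 0.108%, and fitting 15 without mouse m274 gave 110 higher (0.496%) and 33 lower (0.149%), together 0.645%. All 207 genes kept their sign in each of these subsets that was compared gene by gene, namely the arrays without the word, the arrays with it, the mice without m372 and the 15 mice fitted alone. The 207 were chosen by their difference over the same mice, which favours an unchanged sign, so the kept signs are no separate check. Higher genes made up 86% of the calls, 75.7% after quantile normalization (212 higher, 68 lower) and 72% after centring each array on its median (180 higher, 70 lower). The SE and adjusted p of single genes below come from limma with a spread pooled over the 18 groups. The 80 µg mice could vary more, with standard deviations of 2.51 against 0.97 in DM mice for Clca1 and 1.31 against 0.48 for Retnla. With the 16 mice fitted alone by limma, the smallest adjusted p of any gene was 0.0363.

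**Figure D2:**
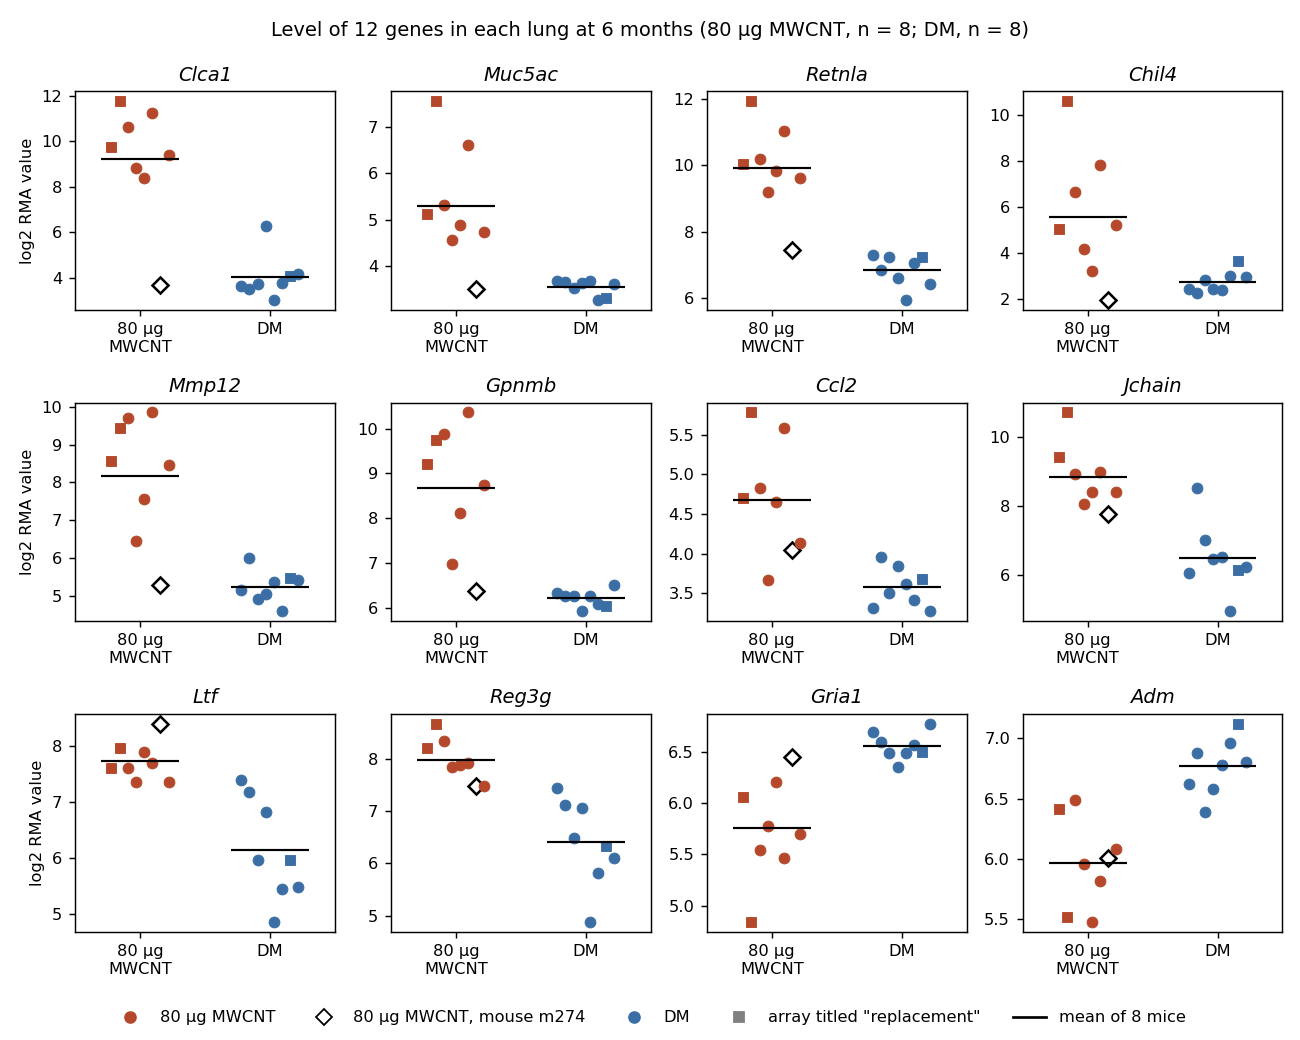
Each panel shows the log2 array level of 1 gene in the 8 exposed lungs (left) and the 8 DM lungs (right), with bars for the mean of 8, an open diamond for exposed mouse m274 and squares for arrays titled "replacement". Mouse m274 is at the DM level for Clca1, Muc5ac, Mmp12 and Gpnmb, but it has the highest Ltf of all 16 lungs and lies with the exposed mice for Adm.

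Mucous cell genes had the largest median difference of the 45 lists described. Of 15 measured, 9 were higher and 0 lower, and the median was 1.08, against -0.02 over all genes. Without mouse m274, 10 were higher with a median of 1.27, 8 were higher without mouse m372 and 7 in arrays without the word. Clca1, a secreted protein of goblet cells that acts on chloride currents, had levels of 3.71, 9.56 and 11.76 (lowest, median and highest) in the exposed mice, against 3.05, 3.75 and 6.28 in the DM mice. Mouse m274 held the 3.71, and the other 7 exposed mice, at 8.38 or more, lay above every DM mouse. The difference in Clca1 was 5.97 without mouse m274 (adjusted p = 1.24e-13) and 5.18 ± 0.63 (SE) with it (adjusted p = 2.07e-09). It was 4.68 once the arrays titled "replacement" were left out and 6.65 among those arrays alone.

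The gel-forming mucin Muc5ac had levels of 3.51, 5.01 and 7.55 in exposed mice and 3.28, 3.63 and 3.69 in DM mice. It exceeded every DM mouse in 7 of 8 exposed mice, and the difference was 1.74 ± 0.27 (adjusted p = 9.08e-06), or 1.99 without mouse m274. Muc5b, the gel-forming mucin that healthy airways also make, had levels of 7.89, 8.59 and 9.49 in exposed and 7.13, 7.78 and 8.12 in DM mice. Its difference was smaller, 0.91 ± 0.17, and 6 of the 8 exposed mice were above every DM mouse (adjusted p = 0.000531). Slc26a4, the anion exchanger pendrin, differed by 2.27 ± 0.36, but DM mouse m48, at 6.51, overlapped the exposed mice. Fcgbp, a mucus protein that binds IgG, differed by 1.82 ± 0.29 and was above every DM mouse in 7 of 8. Agr2, which folds mucins, and Spdef, a transcription factor of goblet cells, rose by 1.18 ± 0.28 and 0.67 ± 0.15. Spdef was not called at 1 or 12 months (0.14 and 0.38), and its change in effect between times did not pass the test either. Pigr, which carries polymeric antibody across epithelium, rose by 1.12 ± 0.21 and the secreted protein Bpifb1 by 1.33 ± 0.26. The trefoil peptide Tff2 was the member added without mouse m274 (difference 1.27, adjusted p = 0.0181).

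Products of alternatively activated macrophages and epithelium were unevenly higher. Of 14 genes on that list, 3 were higher and 0 lower with a median of 0.55. The count was 4 without mouse m274, 2 without mouse m372 and 1, Retnla, in arrays without the word. With the 16 mice fitted alone it was 1, and with the 15 without mouse m274 it was 2. Retnla, a secreted resistin-like protein, had levels of 7.45, 9.92 and 11.92 in exposed mice and 5.95, 6.94 and 7.29 in DM mice. It was 1 of the 9 higher genes in which all 8 exposed mice, mouse m274 included, lay above every DM mouse. Its difference was 3.08 ± 0.31 (adjusted p = 1.59e-13), 3.43 without mouse m274 and 2.78 without the arrays titled "replacement". Chil4, a chitinase-like protein that binds chitin without cutting it, had levels of 1.99, 5.14 and 10.60 in exposed and 2.28, 2.64 and 3.65 in DM mice. Mouse m372 gave the highest Chil4 value and mouse m274 the lowest of all 16. The difference in Chil4 was 2.84 ± 0.58 (adjusted p = 0.00107), and the call was lost in arrays without the word (2.22, adjusted p = 0.162). Chil4 and Chil3 are near-identical copies, so the share of each in a probe set is uncertain. The chemokine Ccl17, a ligand of CCR4, had levels of 5.64, 7.32 and 8.28 in exposed and 5.68, 5.97 and 7.16 in DM mice, a difference of 0.98 ± 0.25 (adjusted p = 0.0261).

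Arg1 and Chil3 did not pass the test. Arg1, which breaks down arginine, had levels of 3.82, 4.23 and 8.92 in exposed mice, against 3.71, 3.91 and 4.41 in DM mice (difference 0.83 ± 0.33, adjusted p = 0.334). The level of 8.92 was that of mouse m372 alone, and the same mouse had the highest Chil3, at 12.17, where the median of the exposed mice was 9.70 and that of the DM mice 9.21. The type 2 cytokines themselves did not pass. Il13 had a median of 3.25 in exposed and 3.26 in DM mice, and Il4 medians of 2.31 and 2.30. Both lay below the array medians over all features, 4.009 to 4.336, where a change may go unseen. Of the 13 type 2 cytokine and receptor genes only Il33, the alarmin stored in nuclei of type 2 alveolar cells, was called, higher by 0.76 ± 0.15 (adjusted p = 0.000645).

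The promoters of Retnla and Ccl17 are shown because both genes rose and are known targets of STAT6, whose sites have the spacing TTCNNNNGAA, a palindrome that reads the same on both strands. Sequences are 300 bases around the annotated start, from RefSeq on GRCm38.p6, with the match in capitals.
Retnla, chr16:48842359-48842658, plus strand: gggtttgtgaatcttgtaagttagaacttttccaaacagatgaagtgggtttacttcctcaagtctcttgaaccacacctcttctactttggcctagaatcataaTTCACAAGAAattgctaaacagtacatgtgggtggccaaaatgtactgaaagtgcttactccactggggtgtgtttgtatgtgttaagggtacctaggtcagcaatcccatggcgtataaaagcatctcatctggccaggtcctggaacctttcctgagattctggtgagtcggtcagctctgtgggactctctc
Ccl17, chr8:94810203-94810502, plus strand: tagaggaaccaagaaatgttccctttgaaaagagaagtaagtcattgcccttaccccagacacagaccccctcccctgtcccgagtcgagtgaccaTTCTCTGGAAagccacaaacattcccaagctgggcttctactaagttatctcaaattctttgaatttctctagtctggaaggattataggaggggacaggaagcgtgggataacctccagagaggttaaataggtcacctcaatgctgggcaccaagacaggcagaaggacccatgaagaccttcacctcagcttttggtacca
The match begins at position -145 in Retnla and -154 in Ccl17, counted from the start site. The spacing was found in 6.95% of 32851 mouse promoters of this length and in 13.5% of the 156 promoters found for the genes higher here. It was also found in 9.38% of the 32 promoters of the lower genes, and none of these shares was tested. No match was found in the Chil4 window.

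Macrophage genes were higher too. Of 18 genes of lipid-laden, phagocytic macrophages 10 were higher and 0 lower with a median of 0.90. The count was 10 without mouse m274, 8 without mouse m372 and 6 in arrays without the word "replacement". Mmp12, macrophage elastase, had levels of 5.28, 8.51 and 9.85 in exposed mice and 4.61, 5.26 and 6.00 in DM mice. The 7 mice other than m274 began at 6.46, above every DM mouse. The difference in Mmp12 was 2.92 ± 0.35 (adjusted p = 1.35e-09), 3.33 without mouse m274, 2.67 in arrays without the word and 3.53 in arrays with it. Gpnmb, a transmembrane glycoprotein of lysosome-laden macrophages, had levels of 6.39, 8.99 and 10.36 in exposed and 5.94, 6.27 and 6.51 in DM mice. It too separated 7 of 8 exposed mice from every DM mouse, with a difference of 2.47 ± 0.31 (adjusted p = 7.62e-09) and 2.79 without mouse m274.

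Ctsk, the lysosomal collagen-cutting cathepsin K, was above every DM mouse in all 8 exposed mice. Its levels were 6.32, 7.71 and 9.03 in exposed and 5.42, 5.77 and 6.00 in DM mice, a difference of 2.04 ± 0.26 (adjusted p = 5.87e-09). Trem2, a lipid-sensing receptor of macrophages, had levels of 4.92, 6.23 and 7.71 in exposed and 4.52, 4.82 and 5.17 in DM mice. Its difference was 1.55 ± 0.24 (adjusted p = 8.75e-06), and mice m274 and m399 lay within the DM range. Atp6v0d2, a subunit of the proton pump that acidifies lysosomes, rose by 1.46 ± 0.24 and the fatty acid binding protein Fabp5 by 0.91 ± 0.19. The membrane proteins Cd68 and Cd63 of lysosomes and late endosomes rose by 1.00 ± 0.20 and 0.47 ± 0.13. The lectin Lgals3 rose by 0.89 ± 0.14 and the cholesterol hydroxylase Ch25h by 0.93 ± 0.24.

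The wider lysosome list had 8 higher and 0 lower of 17, with a median of 0.37. The count was 9 without mouse m274, 6 without mouse m372 and 5 in arrays without the word. Cathepsin D, Ctsd, had levels of 10.26, 10.56 and 11.32 in exposed and 9.81, 10.00 and 10.17 in DM mice. It was higher in all 8 exposed mice than in any DM mouse, by 0.70 ± 0.12 on average (adjusted p = 5.83e-05). Cathepsin S, Ctss, and cathepsin B, Ctsb, rose by 0.76 ± 0.15 and 0.53 ± 0.10. Among 16 monocyte and interstitial macrophage genes, 6 were higher and 0 lower with a median of 0.30, led by Ms4a7 (1.26 ± 0.21) and the complement components C1qb (1.18 ± 0.24) and C1qc (0.95 ± 0.19). Without mouse m372 that count was 3, and in arrays without the word it was 1. Of 10 genes of resident alveolar macrophages, 2 were higher with a median of 0.06, Itgax (0.99 ± 0.18) and Atp6v0d2, and the scavenger receptor Marco had a difference of 0.64 that did not pass (adjusted p = 0.409).

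Mmp12 and Gpnmb are shown next because each holds the AP-1 motif TGANTCA, searched on both strands, within the same 300 bases around a start site in the RefSeq set on GRCm38.p6.
Mmp12, the second of its start sites, chr9:7347124-7347423, plus strand: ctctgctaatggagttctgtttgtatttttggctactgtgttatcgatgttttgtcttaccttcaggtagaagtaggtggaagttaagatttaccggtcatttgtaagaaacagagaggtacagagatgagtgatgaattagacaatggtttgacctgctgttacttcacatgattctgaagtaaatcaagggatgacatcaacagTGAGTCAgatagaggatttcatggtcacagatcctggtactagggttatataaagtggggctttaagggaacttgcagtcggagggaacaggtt
Gpnmb, chr6:49036268-49036567, plus strand: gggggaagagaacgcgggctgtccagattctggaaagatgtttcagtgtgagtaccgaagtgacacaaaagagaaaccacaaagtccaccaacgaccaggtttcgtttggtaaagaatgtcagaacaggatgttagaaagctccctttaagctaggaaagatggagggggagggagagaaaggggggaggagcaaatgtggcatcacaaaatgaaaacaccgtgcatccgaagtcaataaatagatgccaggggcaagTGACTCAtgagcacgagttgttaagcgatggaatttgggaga
The match begins at position -44 in Mmp12 and at position 9 in Gpnmb. AP-1 motifs were in 7.81% of all promoters, in 12.2% of those of the higher genes and in 3.12% of those of the lower genes, and these shares were not tested. None of the 4 windows printed holds the other motif, and the windows of Ctsk and of the other Mmp12 start hold neither.

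**Figure D3:**
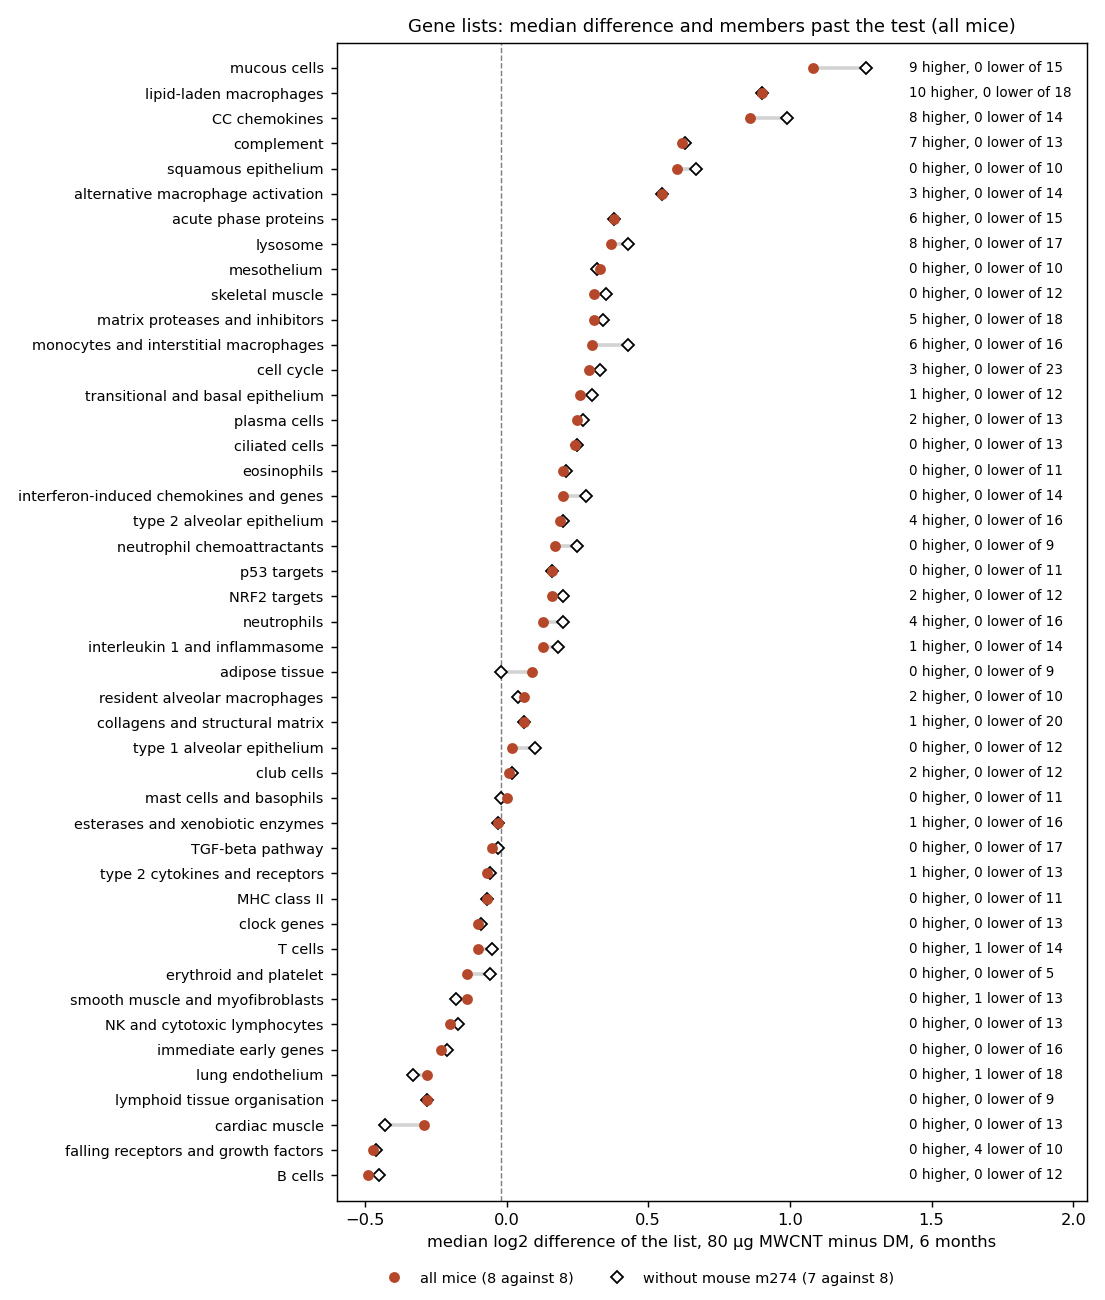
Filled circles give the median log2 difference (80 µg MWCNT minus DM at 6 months) of each of 45 gene lists with all mice, open diamonds the same without mouse m274, and the text at the right counts the members past the test with all mice. The dashed line is the median over all genes (-0.02); mucous cells (1.08), lipid-laden macrophages (0.90) and CC chemokines (0.86) lie highest and B cells (-0.49) lowest.

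CC chemokines, which guide monocytes, eosinophils and lymphocytes, were higher in 8 of 14 and lower in 0, with a median of 0.86. The count was 9 without mouse m274, 4 without mouse m372 and 3 in arrays without the word. Ccl2, a monocyte attractant, had levels of 3.67, 4.68 and 5.78 in exposed and 3.28, 3.56 and 3.96 in DM mice. In Ccl2 mouse m274, at 4.04, lay above every DM mouse and the lowest exposed mouse was m399, and the difference was 1.10 ± 0.19 (adjusted p = 9.97e-05). Ccl11, the eosinophil attractant eotaxin, had levels of 6.26, 7.11 and 9.10 in exposed and 5.88, 6.35 and 6.45 in DM mice (difference 1.06 ± 0.24). Its call was lost without mouse m372 (adjusted p = 0.149). Ccl6, Ccl8, Ccl3 and Ccl9 rose by 1.26 ± 0.23, 1.10 ± 0.25, 1.08 ± 0.23 and 0.99 ± 0.20. By contrast, 0 of 9 neutrophil chemoattractants passed (median 0.17). Cxcl5, the epithelial member of these, had levels of 4.49, 5.09 and 6.61 in exposed and 3.04, 4.53 and 6.78 in DM mice, so the groups overlapped.

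Complement and acute phase genes followed. Of 13 complement genes 7 were higher and 0 lower with a median of 0.62. Fitting the 16 mice alone gave 1, and fitting the 15 without mouse m274 gave 3. With the fit over all groups, 4 were higher without mouse m372 and 1 without the arrays titled "replacement". C3ar1, the receptor of the C3a fragment, had levels of 5.80, 6.97 and 7.93 in exposed and 5.38, 5.89 and 6.04 in DM mice, and was the member still called in those arrays (1.15 ± 0.19, adjusted p = 3.89e-05 with all mice). C4b was above every DM mouse in all 8 exposed mice, at 8.70, 8.85 and 9.23 against 8.04, 8.23 and 8.67 (0.62 ± 0.16, adjusted p = 0.0219). Of 15 acute phase genes 6 were higher and 0 lower with a median of 0.38, and 3 were higher without mouse m372 and also in arrays without the word. With the 16 mice fitted alone 0 were higher, and with the 15 without mouse m274 it was 2. The serum amyloid Saa3 had levels of 3.95, 5.72 and 9.50 in exposed and 3.61, 3.69 and 5.90 in DM mice. Mouse m372 set the 9.50, the difference was 1.73 with it and 1.21 without it, and the call was lost without it (adjusted p = 0.473).

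Of 16 neutrophil genes 4 were higher with a median of 0.13, namely Ltf, Lcn2, Cd177 and Clec4d, of which Ltf and Clec4d were called in arrays without the word. With the 16 mice fitted alone 0 were called. Over the list 12 genes lay above 0 and 4 below. S100a8 (4.41 to 6.97 in exposed, 4.42 to 6.85 in DM mice) and Csf3r (6.28 to 7.67 and 6.46 to 8.78) overlapped between the groups and did not pass. The iron-binding protein lactoferrin, Ltf, had levels of 7.36, 7.65 and 8.41 in exposed and 4.85, 5.96 and 7.39 in DM mice (1.60 ± 0.33, adjusted p = 0.00104). Mouse m274 had the highest Ltf of all 16 mice, and its Reg3g, at 7.49, was also above every DM mouse. Reg3g, an antibacterial lectin of airway epithelium, had levels of 7.49, 7.91 and 8.68 in exposed and 4.88, 6.41 and 7.45 in DM mice (1.58 ± 0.31, adjusted p = 0.000645). Cd177, a surface protein of neutrophils, had levels of 5.49, 6.70 and 8.39 in exposed mice and 5.30, 5.79 and 6.24 in DM mice, and mouse m274 was the 1 exposed mouse within the DM range. Eosinophil genes were called in 0 of 11 (median 0.20), and the ribonuclease Rnase2a had levels of 1.36, 2.83 and 8.08 in exposed and 1.45, 2.16 and 2.46 in DM mice, with the 8.08 in mouse m372.

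Several antibody genes rose, and no B cell gene passed the test. Jchain, the joining chain of IgA and IgM polymers, had levels of 7.78, 8.68 and 10.72 in exposed and 4.97, 6.36 and 8.52 in DM mice. DM mouse m48 held the 8.52 and overlapped 4 of the 8 exposed mice, and the difference was 2.35 ± 0.46 (adjusted p = 0.000645). It was 1.89 in arrays without the word, where the call was lost (adjusted p = 0.116), and 3.93 in arrays with it. Of 21 immunoglobulin genes measured, 8 were higher and 0 lower with a median of 1.58. The count was 12 without mouse m274, 4 without mouse m372 and 0 in arrays without the word. These genes are near-identical segments, so single members are uncertain. Igh-VS107 had levels of 7.07, 9.41 and 11.05 in exposed and 6.70, 7.04 and 8.07 in DM mice, above every DM mouse in 7 of 8 (2.04 ± 0.40, adjusted p = 0.000663). The lambda segment Iglv1 had levels of 7.37, 8.68 and 10.82 in exposed and 5.24, 6.46 and 7.62 in DM mice.

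Among 13 plasma cell genes 2 were higher, Jchain and Tnfrsf17, the receptor BCMA of plasma cells, with a list median of 0.25, and 0 were called in arrays without the word. Tnfrsf17 had levels of 2.32, 3.33 and 5.21 in exposed and 1.97, 2.48 and 2.97 in DM mice (0.94 ± 0.23, adjusted p = 0.0158), and the call was lost without mouse m372 (adjusted p = 0.28). Mzb1, an endoplasmic reticulum protein of antibody-secreting cells, did not pass, with medians of 5.36 in exposed and 5.27 in DM mice. All 12 B cell genes had differences below 0 with a median of -0.49, yet 0 passed the test with or without mouse m274. Ms4a1, the B cell marker CD20, had levels of 6.00, 6.68 and 7.29 in exposed and 6.81, 7.36 and 7.63 in DM mice (difference -0.51, adjusted p = 0.384). Cytotoxic lymphocyte genes were below 0 in 12 of 13 with a median of -0.20, and 0 passed. Of 14 T cell genes 1 was lower, the transcription factor Lef1, and the regulatory T cell factor Foxp3 had a difference of 0.53 that passed only without mouse m274 (0.62, adjusted p = 0.0298).

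Epithelial lists other than mucous cells gave few calls. Of 16 genes of type 2 alveolar cells 4 were higher, Lrg1, Il33, Sftpd and Lamp3, with a median of 0.19 and all 16 above 0. Without mouse m372 the count was 2, Il33 and Sftpd, and with the 16 mice fitted alone it was 0. Sftpd, the collectin surfactant protein D, had levels of 9.89, 10.28 and 11.27 in exposed and 9.43, 9.76 and 10.20 in DM mice (0.62 ± 0.11, adjusted p = 0.000111). Sftpb and Sftpc had differences of 0.00 and 0.10, neither past the test. The call of Lamp3, a lamellar body protein, was lost without mouse m274 (0.36, adjusted p = 0.0653). Of 12 club cell genes 2 were higher, Reg3g and the secretoglobin Scgb3a1 (0.87 ± 0.24), and Scgb1a1 itself differed by 0.00 at 2 decimals. The levels of Sftpc and Scgb1a1 lay near the highest value in the data, 13.276, where a rise may go unseen. The call of Scgb3a1 was lost without mouse m372, without mouse m11 and in arrays without the word. Of 12 genes of transitional and basal epithelium 1 was higher, Lgals3, with a median of 0.26 and all 12 above 0. Of 10 squamous epithelium genes 0 passed, with a median of 0.60 that includes mouse m11. Type 1 alveolar cells gave 0 of 12 with a median of 0.02, and ciliated cells 0 of 13 with a median of 0.24. The mesothelial marker Msln had a difference of 0.92 that passed only without mouse m274 (0.99, adjusted p = 0.0459), and 0 of 10 mesothelium genes passed with it.

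Of 18 matrix proteases and inhibitors 5 were higher and 0 lower with a median of 0.31, namely Mmp12, Ctsk, Timp1, Mmp19 and Adam8. The count was 6 without mouse m274, 3 without mouse m372 and 2 in arrays without the word. Timp1, an inhibitor of metalloproteinases, had levels of 3.86, 5.10 and 6.67 in exposed and 3.76, 4.24 and 4.74 in DM mice, with mouse m274 alone within the DM range. The difference in Timp1 was 0.95 ± 0.20 with it and 1.15 without it, and the call was lost without mouse m372 (adjusted p = 0.0569). Of 20 collagen and structural matrix genes 1 was higher, the matrix glycoprotein Tnc (0.64 ± 0.18, adjusted p = 0.048), and the median was 0.06. That call was lost without mouse m372, without mouse m11 and in arrays without the word. Col1a1 had levels of 8.11, 8.49 and 8.86 in exposed and 7.98, 8.41 and 8.67 in DM mice, and Col3a1 had levels of 8.36, 8.54 and 9.0 in exposed and 7.92, 8.36 and 8.50 in DM mice. Neither passed (adjusted p = 0.974 and 0.652), and the smooth muscle actin Acta2 had a difference of -0.22 (adjusted p = 0.896). The growth factor Tgfb1 had a difference of -0.14 (adjusted p = 0.88).

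Proliferation and stress genes gave few calls. Of 23 cell cycle genes 3 were higher with a median of 0.29, Top2a, a topoisomerase of dividing cells (0.70 ± 0.14), Birc5 (0.63 ± 0.17) and Mki67 (0.52 ± 0.14). Without mouse m274 the count was 5, with Tpx2 and Aurka added. It was 1 without mouse m372, without mouse m11 and after centring, and 0 in arrays without the word. Of 12 NRF2 targets 2 were higher, Slc7a11, the cystine importer (1.09 ± 0.27), and Gclc, of glutathione synthesis (0.37 ± 0.10), whereas Hmox1 (0.43, adjusted p = 0.131) and Nqo1 (-0.10, adjusted p = 0.972) did not pass. The calls of Slc7a11 and Gclc were lost without mouse m372, without mouse m11 and in arrays without the word. Neither the p53 targets nor the circadian clock genes gave a call, with medians of 0.16 and -0.10.

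Some of the largest rises lay outside every list. Npy, the precursor of neuropeptide Y, had levels of 4.01, 5.06 and 6.48 in exposed and 2.75, 3.53 and 4.21 in DM mice, above every DM mouse in 7 of 8, mouse m274 included (1.60 ± 0.31, adjusted p = 0.000531). Chl1, an adhesion molecule best known from neurons, had levels of 3.16, 4.03 and 5.56 in exposed and 1.98, 2.44 and 3.27 in DM mice (1.71 ± 0.33, adjusted p = 0.000641). Fer1l6, of the ferlin family of membrane proteins, had levels of 2.78, 4.22 and 6.59 in exposed and 1.97, 2.59 and 2.97 in DM mice (1.84 ± 0.29, adjusted p = 1.2e-05). In Chl1 the 1 exposed mouse within the DM range was m65, and in Fer1l6 it was m274.

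The 29 lower genes changed less than the higher ones. Gria1, an AMPA glutamate receptor subunit, had levels of 4.84, 5.74 and 6.45 in exposed and 6.36, 6.54 and 6.78 in DM mice. Mouse m372 was lowest and mouse m274 was the 1 exposed mouse within the DM range, and the difference was -0.81 ± 0.16 (adjusted p = 0.000607), or -0.90 without mouse m274. Adm, the vasodilator peptide adrenomedullin, had levels of 5.48, 5.99 and 6.49 in exposed and 6.39, 6.79 and 7.12 in DM mice. For Adm mouse m274, at 6.01, lay below every DM mouse, and the difference was -0.80 with and without it (adjusted p = 0.0121 and 0.0129). At 6 months Adm averaged 6.77 in DM mice, 6.33, 6.28 and 6.32 at 1, 10 and 40 µg, and 5.97 at 80 µg. The growth factor receptor Fgfr4 had levels of 6.04, 6.54 and 6.94 in exposed and 6.90, 7.07 and 7.69 in DM mice (-0.60 ± 0.14, adjusted p = 0.00936). All 8 exposed mice lay below every DM mouse in 6 of the 29, where 0.0721% of all genes did so, and the 7 other than m274 did in 16, where 0.248% of all genes did so.

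Among these 6, Lef1 had levels of 5.71, 6.24 and 6.36 in exposed and 6.39, 6.57 and 7.12 in DM mice, and the lymphatic growth factor Vegfd 7.44, 8.06 and 8.28 in exposed and 8.32, 8.44 and 8.53 in DM mice. Plpp3, a lipid phosphatase, had levels of 9.59, 9.96 and 10.27 in exposed and 10.28, 10.37 and 10.54 in DM mice (-0.41 ± 0.10, adjusted p = 0.0112). The call of Lef1 was lost without mouse m274 (adjusted p = 0.0604), and mouse m274 had a level of 5.84. The other lower genes named by the rule, which were Scube2, Bmper, Sphkap, Mettl24, Tafa1, Tmcc2, Raver2, Amph, Fbxo41, Ncald, Reck, Itga8, Gja5, Ripor2 and Rhox1, had differences of -0.60 to -0.38. Without mouse m372 a single lower gene was called.

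Endothelial genes lay below 0 in 17 of 18 with a median of -0.28. Gja5, a connexin of arterial endothelium, was called with all mice (-0.48 ± 0.12, adjusted p = 0.014), and Kdr and Flt1, the VEGF receptors, and Ednrb, an endothelin receptor, were added without mouse m274. Kdr had levels of 9.76, 10.47 and 10.69 in exposed and 10.56, 10.79 and 10.92 in DM mice (-0.36 with mouse m274, adjusted p = 0.0565, and -0.39 without it, adjusted p = 0.028). Ednrb had levels of 8.41, 9.41 and 9.74 in exposed and 9.71, 9.82 and 10.10 in DM mice. Mouse m372 was lowest in both, and without mouse m372 the list had 0 calls, as it had in arrays without the word.

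The 7 genes called only with mouse m274 in the group were Lef1, Ripor2, Rhox1, Lamp3, Ifi205, Grem1 and A430078G23Rik. Another 90 genes were called only without it, 62 higher and 28 lower. Beside those given above they included Slpi, an antiprotease of airway secretions (1.11, adjusted p = 0.0189), the vanin Vnn1 (0.97), the CCR4 ligand Ccl22 (0.88), the interferon-induced chemokine Cxcl10 (0.84) and the collagenase Mmp13 (0.85). Lower ones included Bex2 (-0.84), the amino acid carrier Slc7a10 (-0.69), the growth factor binding protein Igfbp3 (-0.59) and the sodium channel subunit Scn3a (-0.56).

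Time was compared with the same dose and its own DM mice at 1 and 12 months, which share no mice with the 6-month groups and only the estimate of spread. At 1 month 374 genes were higher (1.69%) and 24 lower (0.108%), together 1.79% of those tested, and at 12 months 35 were higher (0.158%) and 4 lower (0.018%), together 0.176%. Arrays without the word gave 71 higher and 1 lower at 1 month, and 134 higher and 73 lower at 12 months, so the order of the 2 counts was the opposite there. Those arrays are fewer than the full groups and differ in number between the times, so the 2 counts are not like for like. Of the 178 genes higher at 6 months, 140 were also called higher at 1 month, which is 78.7% of the 178 and 37.4% of the 374. With the 12-month list 27 were shared, 15.2% of the 178 and 77.1% of the 35. The 178 had a median difference of 0.83 at 1 month, where 177 were above 0, of 0.82 at 6 months (0.90 without mouse m274), and of 0.49 at 12 months, where all but 4 were above 0. The 374 genes of 1 month had medians of 0.65, 0.42 and 0.28 at 1, 6 and 12 months, and all but 2 of them were above 0 at 6 months. Each set was chosen by its difference at its own time, which raises its median there. A smaller median at another time can come from that choice alone, so these medians do not give a time course. Lower genes overlapped little, with 2 shared with 1 month (6.9% of the 29 and 8.33% of the 24) and 0 shared with 12 months, although 28 of the 29 were also below 0 at each of those times.

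No gene passed the test of the change in effect from 1 to 6 months (637 at an unadjusted p under 0.05, limma) or from 6 to 12 months (1133). Clca1 differed from DM by 6.36 ± 0.63 at 1 month, by 5.18 ± 0.63 at 6 months and by 4.70 ± 0.63 at 12 months, and neither step passed. Chil4 had the steepest decline of the genes plotted, 5.19 ± 0.58, 2.84 ± 0.58 and 0.60 ± 0.58 over the same times, with an unadjusted p of 0.00461 for the earlier step and 0.00695 for the later one, neither past the adjusted threshold. Ccl2 had differences of 0.78 ± 0.19, 1.10 ± 0.19 and 0.32 ± 0.19. Tnfrsf17 had differences of -0.05 at 1 month, 0.94 at 6 months and -0.05 at 12 months. The 21 immunoglobulin genes had medians of 0.79, 1.58 and 0.83 at 1, 6 and 12 months, with 1, 8 and 1 called.

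**Figure D4:**
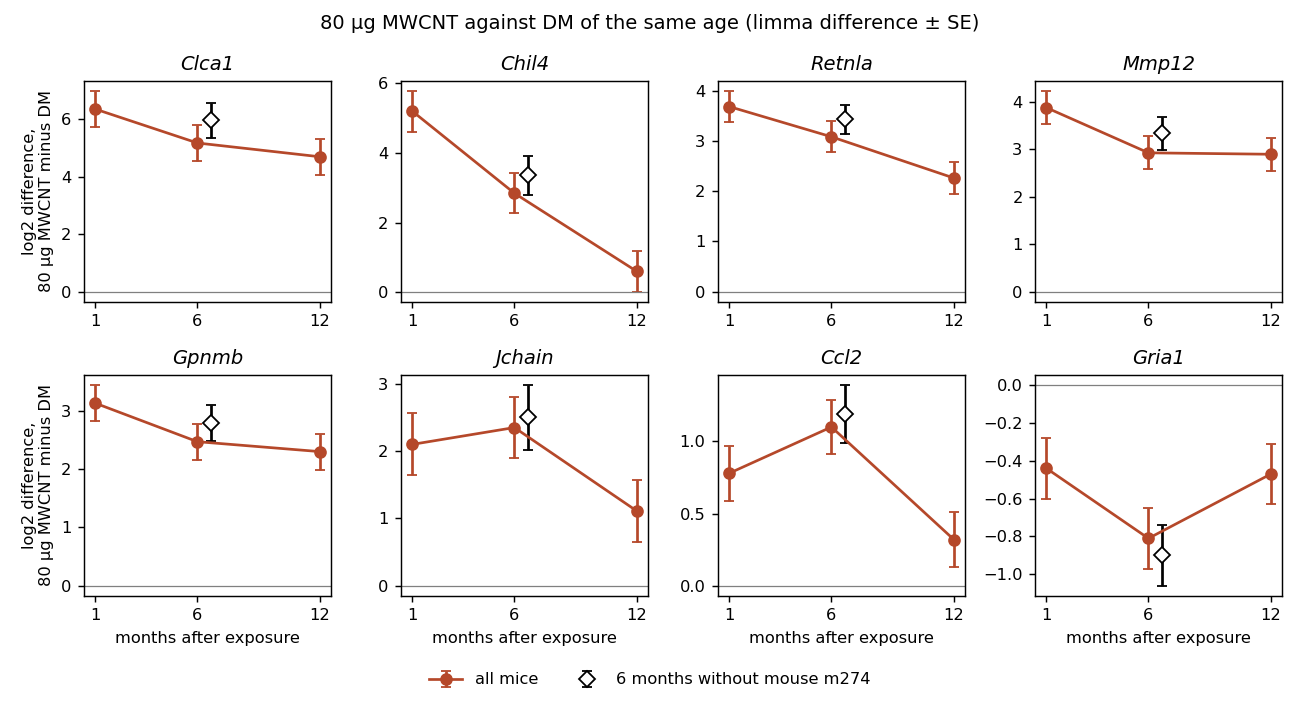
The y axis is the log2 difference between 80 µg MWCNT and DM mice of the same time (limma, ± SE, n = 8 against 8) and the x axis the months after exposure, to scale; open diamonds, drawn a little to the right, give 6 months without mouse m274. Chil4 stands at 5.19, 2.84 and 0.60 at 1, 6 and 12 months, and Mmp12 at 3.87, 2.92 and 2.89.

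The other groups read at 6 months share the DM mice with the 80 µg group, so their values are given side by side. Against DM, 0 genes were called at 1 µg (0%), 1 at 10 µg (0.00451%), 47 at 40 µg (0.212%), 207 at 80 µg and 816 with crocidolite (3.68%). Clca1 averaged 4.03 ± 0.97 in DM mice, 5.40 ± 1.99 at 1 µg, 6.60 ± 1.35 at 10 µg, 9.11 ± 1.12 at 40 µg, 9.21 ± 2.51 at 80 µg and 8.83 ± 0.92 with crocidolite (SD, n = 8 each). Retnla, the 1 gene called at 10 µg, averaged 6.83 ± 0.48, 7.68 ± 1.09, 8.62 ± 0.67, 9.40 ± 0.69, 9.90 ± 1.31 and 10.53 ± 0.26 in the same order. The SD at 80 µg and at 1 µg, the groups that hold mice m274 and m247, exceeded that of the other groups for both genes.

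Direct tests between exposed groups use no DM mice. Between 80 µg and 40 µg MWCNT 0 genes were called (697 at an unadjusted p under 0.05, limma), and the direct difference was 0.10 ± 0.63 for Clca1 and 0.67 ± 0.24 for Trem2 (unadjusted p = 0.00641). Between 80 µg MWCNT and crocidolite 0 genes were higher and 6 were lower with MWCNT, 0.0271% of those tested, and the same 6 were called without mouse m274. Arrays without the word gave 1 higher and 11 lower, these 6 among them. The 2 groups fitted alone gave 1 higher and 4 lower, with 3 of the 6 among them. Dmbt1, a scavenger glycoprotein of mucosal secretions, was lower with MWCNT by -3.24 ± 0.28 (adjusted p = 1.51e-17), and its levels with MWCNT of 2.15, 2.58 and 3.16 overlapped those of the DM mice, 2.04, 2.36 and 2.66. Gp2, a glycoprotein that binds bacteria on the epithelial surface, was lower by -2.14 ± 0.26 (adjusted p = 3.92e-09), although it was higher with MWCNT than with DM, at 3.33, 4.34 and 5.80 against 2.63, 3.09 and 3.53 (1.39 ± 0.26, adjusted p = 0.000421). The others were Clca3b (-1.38 ± 0.23), Cdhr1 (-1.29 ± 0.20), Slco1a5 (-0.92 ± 0.15) and the olfactory receptor Olfr1445 (-0.95), the last named although the rule passes over such genes. Ccl2 lay on the other side, higher with MWCNT than with crocidolite by 0.71 ± 0.19, without passing (adjusted p = 0.384).

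**Figure D5:**
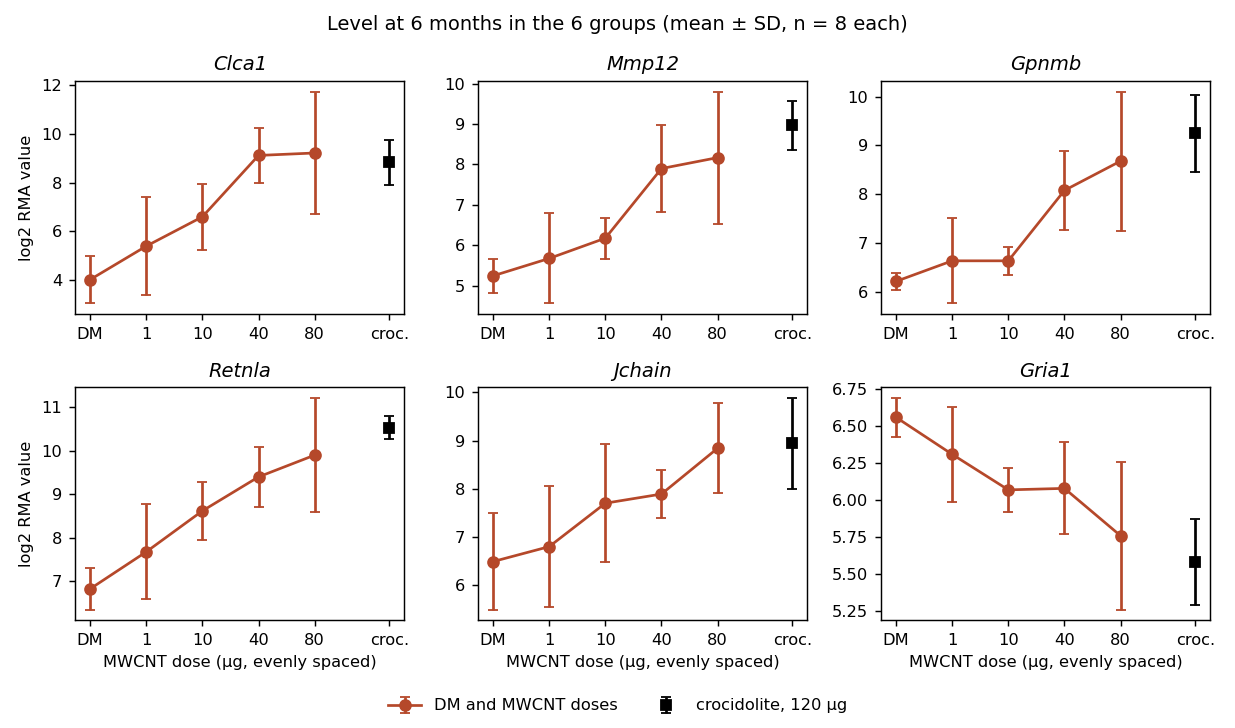
Points give the mean log2 array level at 6 months (± SD, n = 8 each) in DM mice, at the 4 MWCNT doses (evenly spaced on the x axis) and, as squares, with 120 µg crocidolite. Clca1, Mmp12, Gpnmb, Retnla and Jchain have their highest MWCNT mean at 80 µg (9.21, 8.17, 8.68, 9.90 and 8.84) and Gria1 its lowest (5.76).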

How the data were processed

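The deposited table holds log2 values for 41345 array features, made by the authors with RMA (background correction, quantile normalization and summary of probes) in oligo, with limma also named, per the submitters' processing notes; versions and a genome build are named nowhere in those notes. Of the features, 23521 carry a single gene symbol; a gene with several was read from its brightest feature on average, leaving 22180 genes. All sample columns were mapped, so 0 were left unused. Array medians over all features were 4.009 to 4.336; the number of arrays, not read depth, limits the precision, and p-values measure the spread between mice.

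limma (3.58.1, R 4.3.3) fitted a mean for each of 18 groups over 138 mice, the 2 arrays of 1 mouse averaged, with empirical Bayes moderation and 120 residual degrees of freedom before it. Tests are two-sided, adjusted by Benjamini-Hochberg over all genes and called at 0.05. Fold changes are log2 differences, 80 µg MWCNT minus DM. Panel genes were also compared by an exact permutation test over mice, whose smallest possible p is 0.000155. On simulated data with 200 changed genes of 22180, the fit recovered 55% of 1.5-fold and 92% of 2-fold changes with 10 false calls. On the same data the 16 mice fitted alone recovered 33% and 91% with 8. On the measured arrays these fits gave 207 and 24 calls, and the recovery and false calls of either fit there was not tested.

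Genes were named by a rule: the 25 largest rises and 20 largest falls past the test, up to 4 called members of each of 45 lists, genes called only with or only without mouse m274, the 5 largest in each direction of other comparisons, and a fixed panel. List members that did not pass are named where a list is described, and some such members were singled out after their values were seen. The lists hold 616 genes, of which 567 were measured. The comparison, its members and the lists were chosen with earlier results of these data known, and the list of receptors and growth factors that holds Gria1, Adm, Fgfr4 and Lef1 was drawn up from genes already known to be lower here. Of the single-symbol features, 23328 matched a RefSeq gene record, and promoter sequences are RefSeq's on GRCm38.p6. Promoters of Clca1, Muc5ac, Ccl11 and Gria1 are named only. Tables were handled with pandas 2.3.3 and numpy 2.4.6 and drawn with matplotlib 3.10.9 in Python 3.11.15.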

Additional observations from a re-analysis of the deposited data

Results flagged for a closer look

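Values are the gap between the extreme mouse and its nearest neighbour as a share of the range of its group of 8, reported where the share exceeded Dixon's critical value for 8 samples. Chance alone puts about 1 in 20 groups past that limit.

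Among exposed mice, mouse m274 was far below the others for Clca1 (0.58). Mouse m372 was far above the others for Arg1 (0.815), Chil3 (0.745), Tnfrsf17 (0.602), Igkv4-72 (0.555), Rnase2a (0.545) and Saa3 (0.533), and far below them for Kdr (0.655) and Ednrb (0.604).

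Among DM mice, mouse m48 was far above the others for Atp6v0d2 (0.78), Igkv4-72 (0.679), Vnn1 (0.647), Cfb (0.54) and Igkv5-43 (0.533). Mouse m169 was highest for Clca1 (0.655) and lowest for Col3a1 (0.638), and mouse m250 highest for Sphkap (0.664) and Tmcc2 (0.597). Mouse m343 stood out for Igkv15-103 (0.627), mouse m84 for Fgfr4 (0.61) and mouse m306, whose title has the word "replacement", for Cdhr1 (0.555), each as the highest.

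Outside the genes tested, 17824 features carry no gene symbol or several, and 25 of them were higher and 2 lower in exposed than in DM lungs at 6 months, 0.151% of these features.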

How the results depend on the processing

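The count of 207 genes moved by more than 1.5 times under several settings: to 24 with the 2 groups fitted alone, 54 in arrays without the word "replacement", 520 with array weights (321 higher, 199 lower) and, in alternatives chosen after seeing the data, 117 higher and 15 lower without the word and without mouse m274, 10 in arrays with the word and 128 without mice m274 and m372. Leaving out 1 mouse at a time gave 75 to 236, apart from m274, without which there were 290. The other settings stayed within 1.5 times: 207 with the word as a covariate, a few more with trended and robust moderation (181 higher, 33 lower), 280 after quantile normalization, 250 after centring, 215 of 11090 genes without dim genes and 199 with the mean of a gene's features. The change in effect from 1 to 6 months gave 0 genes with all mice and 0 to 1 leaving out 1 mouse at a time, the 1 without exposed mouse m372; the change from 6 to 12 months likewise gave 0 to 1, the 1 without replicate 3 of the 80 µg group at 12 months. The count of 398 at 1 month moved to 72 in arrays without the word (85 also without mouse m274), 148 in arrays with it and 631 with array weights. The 39 at 12 months moved to 207 (211), 5 and 127 under the same settings, and to 21 in the groups fitted alone, 91 higher and 28 lower after quantile normalization and 66 after centring. The 6 genes that differed from crocidolite were all called without mouse m274. The count was 12 in arrays without the word, 10 with array weights and 5 to 10 leaving out 1 mouse at a time. It was 0 among the 11090 genes left once dim genes were dropped from the test. The 2 groups fitted alone gave 5 genes, and 6 without mouse m274, each time with 3 of the original 6 among them. Against 40 µg the count of 0 became 1 in the groups fitted alone and 2 there without mouse m274.

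Single genes that turned direction were all close to 0 and not past the test. Ager stood at -0.07 in arrays without the word, Nqo1 at 0.02 in arrays with it, and Olfr1445 at 0.01 in arrays without it and at -0.15 to 0.00 leaving out 1 mouse at a time, where the sign turned without DM replicate 7. Scgb1a1 stood at 0.04 in arrays with the word and at -0.03 to 0.02 leaving out 1 mouse at a time, where the sign turned when any of exposed replicates 1, 5 and 8 or DM replicates 3, 5 and 6 was left out (0.01, 0.00, 0.02, 0.02, 0.01 and 0.02). The cause of these moves was not tested. Of the named genes, 57 kept the direction but lost the call in arrays without the word, as did 71 in the groups fitted alone. No paired analysis was possible because the labels give mouse numbers that are not shared between groups.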

Other observations

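Mouse m247, labelled 1 µg MWCNT at 6 months, had higher levels of the genes that marked the 80 µg lungs than any other mouse of its dose. Its levels were 8.79 for Gpnmb and 10.25 for Retnla, where the other 7 mice of the 1 µg group had 6.15 to 6.46 and 6.93 to 7.83. It exceeded every 6-month DM mouse in 222 of the 374 genes higher at 1 month, where the other 7 did so in 22 to 77 genes and exposed mouse m274 in 55. In some of the named genes mouse m274 lay outside the DM range. Its Ltf (8.41), Reg3g (7.49), Retnla (7.45), Ctsk (6.32), Npy (4.24) and Ccl2 (4.04) each lay above every DM mouse, and its Adm (6.01) and Lef1 (5.84) below every one. These were picked from genes called with mouse m274 in the exposed group. The share of all genes in which it did so was not counted.

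Genes of squamous epithelium and skeletal muscle had medians of 0.60 and 0.31 in the comparison of 80 µg MWCNT with DM, with 0 of 10 and 0 of 12 past the test. Krt4, a keratin of squamous lining, was at 11.84 and Acta1, skeletal muscle actin, at 10.00 in mouse m11, where the medians of the 8 exposed mice were 3.36 and 4.10. Cardiac muscle genes, which the pulmonary veins of mice also express, were below 0 in 13 of 13 with a median of -0.29, and 0 passed.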
